A study of Mus musculus with 2 samples.

Results

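The 10 genes described here are long genes, most of them known from neurons, and they were chosen by their measured levels in the microglia of these same data. *Tafa1*, *Ctnna3*, *Grik2*, *Esrrg* and *St8sia6* lead groups of microglia from knockout mice, and *Csmd3*, *Nav2*, *Khdrbs3*, *Nbea* and *Rgs7bp* lead groups of microglia from control mice. The sets are called knockout-led and control-led genes below, and together they are 10 of the 32285 genes counted. A name of neural adhesion genes would fit few of them, since *Ctnna3* alone encodes a protein of cell junctions. Because the choice used the difference between the genotypes in microglia, the values of that difference are a description here, without a test.

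The cells came from 12-week-old mice of 2 genotypes. Control mice were *Arpc4* fl/fl littermates without Cre, and Arpc4ΔCx3cr1 mice were *Arpc4* fl/fl with 1 copy of the *Tg(Cx3cr1-Cre)* transgene. Its Cre acts early, so that microglia and the other brain cells of the myeloid line form without an intact *Arpc4* gene. *Arpc4* encodes a subunit of the Arp2/3 complex, which starts branched actin filaments. There were 4 male control mice and, in the knockout group, 3 male mice and 1 female mouse, and the labels do not say which knockout mouse is the female, which the authors left out of their own analysis. CD45+ cells were sorted from each brain, marked with a tag per mouse and pooled into 1 library of transcript 3′ ends, so RNA set free from any mouse could enter the droplets of all others. No barcode was given to more than 1 mouse.

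The tables hold unique molecular identifiers (UMIs), each of which stands for 1 captured RNA molecule. Control mice had 5251527, 11148525, 10695670 and 10419683 UMIs on genes, and Arpc4ΔCx3cr1 mice had 12797266, 10768644, 12878691 and 12528757. The levels of the 10 genes rest mostly on 17039 microglia-like cells, 7801 of them from control mice with a median of 3836 UMIs and 9238 from knockout mice with a median of 4283. Knockout mouse 1 stood apart from the other 7 mice in measures other than the 10 genes: its tags took 59.3% of its UMIs, against 17.9 to 38.0% in the others. In its microglia-like cells *Xist*, the RNA that coats the silenced X chromosome in female cells, reached 1444 CPM (counts scaled to a common total). The other 7 mice had 3.54 to 13.8 CPM. By this RNA knockout mouse 1 is the likely female, and sex cannot be told apart from whatever else sets this mouse apart. The log2 fold change of each of the 10 genes without this mouse is therefore given beside that of all mice.

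Long genes with large introns are common among those of synapses, cell contacts and axon growth, and neurons read many of them at a high level. Microglia, the macrophages of the brain tissue, also transcribe a number of long genes, among them ones named for neurons. A captured 3′ end is counted once whatever the length of the gene, although priming inside introns can add counts to long genes if intronic reads are counted, and the sources used here do not state that setting.

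Among the knockout-led genes, *Tafa1* encodes a small secreted protein that resembles a chemokine and is made mainly in the brain. *Ctnna3* encodes an α-catenin, a link between cadherins and actin that is best known from the heart. *Grik2* encodes a subunit of the kainate receptors, ion channels opened by glutamate. *Esrrg* encodes an orphan nuclear receptor that drives genes of energy metabolism, and *St8sia6* a sialyltransferase that adds sialic acid to sugar chains that already carry it. Among the control-led genes, *Csmd3* encodes a very large membrane protein of CUB and Sushi domains, and *Nav2* a neuron navigator that binds the cytoskeleton and takes part in neurite outgrowth. *Khdrbs3* encodes an RNA-binding protein that guides splicing of neurexin transcripts in neurons. *Nbea* encodes neurobeachin, a scaffold in the traffic of receptors to synapses, and *Rgs7bp* a membrane anchor of regulators of G protein signalling.

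Promoters were compared because the genes of each set go together in the microglia groups. RefSeq starts on GRCm38.p6 were matched for 8 of the 10 genes (14 starts), all but *Csmd3* and *Khdrbs3*. Short motifs were searched on both strands of the 250 bases before each start. The AP-1 family motif TGANTCA was in 2 of the 14 (6.75% of 32841 promoters of all genes hold it) and the TATA box TATAAA in 2 (12.4%). The PU.1 motif GAGGAAG (10.6% of all), the E-box CACGTG of MITF and TFE factors (6.02%) and the half-site AAGGTCA of the ERR family, to which *Esrrg* belongs (4.08%), were in 0 of 14. A match is a run of letters and not a shown site, and the search found no motif shared by a whole set.

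The knockout-led promoters with a TGANTCA match are printed with those of the control-led *Nav2* and *Rgs7bp*, which like them hold fewer than 10 CpG pairs and which have none of the 5 motifs, each 5′ to 3′ on the strand of its gene and with matches in capitals. *Tafa1* (chr6:96112904-96113153, + strand) has the match 151 bases before its start. The first start of *Esrrg* (chr1:187608756-187609005, + strand) has it 42 bases before, and a TATA box on the other strand 19 bases before. *Nav2* is given at its first matched start (chr7:48958823-48959072, + strand), which lies inside the span of the gene given below. *Rgs7bp* is given at its only one (chr13:105054931-105055180, − strand).
Tafa1: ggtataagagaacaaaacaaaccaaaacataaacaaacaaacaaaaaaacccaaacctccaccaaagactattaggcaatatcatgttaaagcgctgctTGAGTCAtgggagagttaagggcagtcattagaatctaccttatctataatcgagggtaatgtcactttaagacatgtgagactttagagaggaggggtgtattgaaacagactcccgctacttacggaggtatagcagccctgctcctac
Esrrg: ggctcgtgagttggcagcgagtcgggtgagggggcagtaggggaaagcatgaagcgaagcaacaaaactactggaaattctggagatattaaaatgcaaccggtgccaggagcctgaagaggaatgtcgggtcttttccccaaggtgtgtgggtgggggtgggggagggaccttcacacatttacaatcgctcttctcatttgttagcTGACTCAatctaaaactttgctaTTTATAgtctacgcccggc
Nav2: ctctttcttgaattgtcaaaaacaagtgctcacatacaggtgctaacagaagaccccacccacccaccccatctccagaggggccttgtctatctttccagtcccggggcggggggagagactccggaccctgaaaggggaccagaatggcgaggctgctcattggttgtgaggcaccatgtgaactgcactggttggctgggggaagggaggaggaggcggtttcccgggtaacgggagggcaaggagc
Rgs7bp: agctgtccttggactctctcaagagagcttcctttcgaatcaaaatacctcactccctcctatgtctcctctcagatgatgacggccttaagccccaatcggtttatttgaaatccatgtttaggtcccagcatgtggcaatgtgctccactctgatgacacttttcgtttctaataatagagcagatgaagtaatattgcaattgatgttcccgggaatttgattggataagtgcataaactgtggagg

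In base composition the promoters of the sets were alike in their variety. The first start of *Ctnna3* had 36 CpG pairs in these 250 bases, *St8sia6* 30, *Grik2* 20, *Esrrg* 9 and *Tafa1* 4, and among the control-led genes *Nbea* had 28, *Nav2* 7 and *Rgs7bp* 5, where the median of all promoters was 6. At its other start *Nav2* had 36, the other starts of *Esrrg* had 14, 22 and 16 and those of *Ctnna3* 7 and 1. Both CpG-rich and CpG-poor promoters thus occurred on each side, and for these genes the count depends on the start.

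*Tafa1* (ENSMUSG00000059187) lay at 21.2, 10.8, 17.6 and 28.7 CPM in the microglia-like cells of control mice 1 to 4, and at 298, 344, 380 and 698 CPM in those of Arpc4ΔCx3cr1 mice 1 to 4. CPM are scaled here by the total of a mouse times its TMM factor, an edgeR correction for composition. All 4 knockout mice lay above all 4 control mice, and knockout mouse 4 was the highest. The means were 19.6 ± 7.43 and 430 ± 182 CPM (SD, n = 4 mice each), a fitted log2 fold change of 4.47 (standard error 0.34), and 4.62 without knockout mouse 1. Behind the control values stand 91 to 284 UMIs per mouse, and behind the knockout values 3066 to 7804.

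Relative to its mean, the α-catenin gene *Ctnna3* (ENSMUSG00000060843) varied most among the knockout mice. It had 24.3, 116, 277 and 221 CPM there, against 6.98, 4.87, 3.75 and 5.35 CPM in the control mice. Knockout mouse 1 was the lowest of its group and still above every control mouse. The log2 fold change was 4.99 (standard error 0.70) with that mouse and 5.36 without it. Over the planned settings of the processing it ran from 4.59 to 7.62, and in clusters mostly of the own genotype it was 6.45. *Grik2* (ENSMUSG00000056073), the kainate receptor subunit, had 2.56, 1.49, 2.14 and 2.02 CPM in control mice, which are 11 to 20 UMIs per mouse, and 41.7, 44.2, 102 and 80.6 CPM in knockout mice. Its groups were far apart (log2 fold change 5.08, standard error 0.38, and 5.26 without knockout mouse 1), although the control level is so low that few UMIs set the size of the fold. For *Grik2* the planned settings gave 4.81 to 7.47, and clusters mostly of the own genotype 6.455.

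*Esrrg* (ENSMUSG00000026610) lay at 11.2, 11.1, 10.3 and 9.58 CPM in control mice and at 54.6, 50.4, 101 and 99.0 CPM in knockout mice, so that knockout mice 1 and 2 were near each other and below mice 3 and 4. *St8sia6* (ENSMUSG00000003418) had the same order of pairs, with 148, 204, 287 and 271 CPM in knockout mice and 19.8, 15.7, 25.3 and 23.1 CPM in control mice. These were the 2 smallest of the 5 differences, with log2 fold changes of 2.87 (standard error 0.25) and 3.44 (standard error 0.22). Without knockout mouse 1 they were 3.00 and 3.60. In sum the 5 knockout-led genes took 61.7, 44.0, 59.0 and 68.7 CPM in control mice and 567, 759, 1148 and 1370 CPM in knockout mice.

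*Csmd3* (ENSMUSG00000022311) was the most abundant of the 10 genes in control microglia-like cells, at 2999, 3025, 2342 and 2555 CPM, and was far below that in the knockout mice, at 62.6, 252, 172 and 84.8 CPM. Knockout mouse 2 was the highest of its group and held less than any control mouse by a wide margin. The log2 fold change was −4.26 (standard error 0.39), −4.01 without knockout mouse 1 and −4.68 without mouse 2. *Nav2* (ENSMUSG00000052512) followed at 1677, 1607, 1683 and 1569 CPM in control mice and had the highest level of the 5 in knockout mice, at 214, 518, 319 and 292 CPM. Mouse 2 was again the highest, and the log2 fold change was −2.28 (standard error 0.22) and −2.12 without mouse 1.

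*Khdrbs3* (ENSMUSG00000022332), the splicing factor, was nearly absent from the knockout counts: 93.1, 99.1, 85.9 and 92.0 CPM in control mice stood against 1.07, 4.07, 2.07 and 1.79 CPM in knockout mice, the latter on 11, 40, 23 and 20 UMIs. *Rgs7bp* (ENSMUSG00000021719) went with it, from 55.2, 61.9, 49.9 and 54.2 CPM to 1.95, 3.56, 3.60 and 3.40 CPM, on 20 to 40 UMIs per knockout mouse. The log2 fold changes were −5.37 (standard error 0.21) and −4.14 (standard error 0.15), and −5.15 and −3.97 without knockout mouse 1. *Nbea* (ENSMUSG00000027799) differed least, with 191, 188, 198 and 165 CPM in control mice and 38.9, 51.3, 64.0 and 60.9 CPM in knockout mice (log2 fold change −1.78, standard error 0.13, and −1.65 without knockout mouse 1). The 5 control-led genes together took 5014, 4981, 4358 and 4435 CPM in control mice and 319, 829, 560 and 443 CPM in knockout mice.

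**Figure D1:**
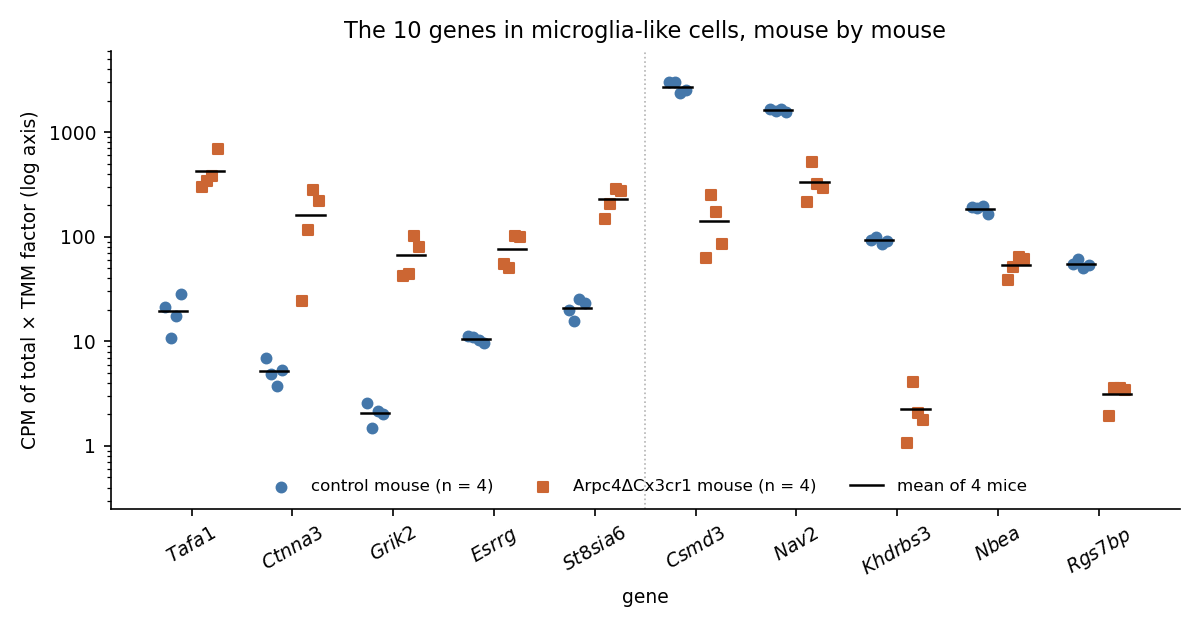
Level of each of the 10 genes in microglia-like cells, in CPM of the total times the TMM factor on a log axis, with 1 point per mouse (4 control, 4 Arpc4ΔCx3cr1) and a line at the mean. For each gene the groups lie apart, most closely on this axis for *Nbea*, whose lowest control mouse had 165 CPM and whose highest knockout mouse had 64.0.

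Of 12728 genes compared between the genotypes in microglia-like cells, 46.0% passed at 0.05 in edgeR's quasi-likelihood test (Benjamini-Hochberg adjustment) and 44.2% had groups of mice that did not overlap. For the 10 genes both counts are 10 of 10, which the choice of the genes fixed in advance and which therefore says nothing about them. By size of the fitted rise *Grik2* ranked 11th, *Ctnna3* 16th, *Tafa1* 42nd, *St8sia6* 156th and *Esrrg* 254th. By size of the fall *Khdrbs3* ranked 3rd, *Csmd3* 16th, *Rgs7bp* 19th, *Nav2* 131st and *Nbea* 227th, so that other genes moved as far or further.

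*Arpc4* itself (ENSMUSG00000079426) had 237, 216, 225 and 222 CPM in control and 153, 148, 143 and 138 CPM in knockout microglia-like cells. Its counted 3′ ends do not measure the deletion, and *Ttll3* overlaps it on the same strand, so the level checks the labels only in part. Arpc4ΔCx3cr1 mice were lower than control mice in 4 of 4.

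The order of levels in UMIs changed with the genotype. In control mice it ran *Csmd3*, *Nav2*, *Nbea*, *Khdrbs3*, *Rgs7bp*, *St8sia6*, *Tafa1*, *Esrrg*, *Ctnna3* and *Grik2*, and neighbours overlapped between mice only for *St8sia6* with *Tafa1* and *Tafa1* with *Esrrg*. In knockout mice it ran *Tafa1*, *Nav2*, *St8sia6*, *Ctnna3*, *Csmd3*, *Esrrg*, *Grik2*, *Nbea*, *Rgs7bp* and *Khdrbs3*. There each gene overlapped with the next, except that *Nbea* stayed above *Rgs7bp* in every mouse. These are counts of captured molecules, not corrected for length, and capture can differ between genes.

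The share of cells with a UMI was compared after each cell had been thinned to 2000 UMIs, which left out 289 control and 330 knockout cells below that depth. *Csmd3* was seen in 88.3, 88.5, 81.5 and 84.1% of the microglia-like cells of control mice and in 5.33, 13.1, 9.62 and 5.72% of those of knockout mice. *Nav2* was seen in 83.8 to 86.2% and in 23.3, 43.3, 35.7 and 30.6%. Most control cells thus held each of the 2 most abundant control-led genes, and in knockout mouse 2 more cells held them than in the other knockout mice. *Khdrbs3* went from 15.7% ± 0.633 to 0.469% ± 0.298, *Nbea* from 25.6% ± 2.16 to 8.06% ± 1.44 and *Rgs7bp* from 8.72% ± 1.04 to 0.511% ± 0.204 (mean and SD, n = 4 mice each). Without thinning the shares of these 5 genes were 88.8, 90.0, 27.0, 39.1 and 15.2% in control and 12.5, 48.7, 0.913, 15.5 and 0.998% in knockout mice.

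Of the knockout-led genes *St8sia6* was the most widespread, in 20.4, 27.3, 36.2 and 36.1% of the cells of knockout mice and 2.54 to 3.61% of those of control mice. *Tafa1* was at a higher level than *St8sia6* but in fewer cells, 18.5, 15.6, 23.3 and 29.5% of knockout and 0.723 to 1.65% of control cells. *Ctnna3* was seen in 2.55, 8.89, 20.01 and 15.0% of knockout cells, *Grik2* in 4.86, 6.03, 12.1 and 9.27% and *Esrrg* in 7.74, 6.99, 13.8 and 14.2%. For each of these 5 genes the shares in knockout mice 3 and 4 were above those in mice 1 and 2. Unthinned means in knockout mice were 28.6% for *Tafa1*, 16.4% for *Ctnna3*, 13.1% for *Grik2*, 18.5% for *Esrrg* and 49.8% for *St8sia6*, and in control mice 1.80, 1.14, 0.553, 2.64 and 6.23%.

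As a background, shares in cells that should lack the genes were read from 212 lymphocyte-like cells with few microglia transcripts, thinned in the same way from a median of 3372 UMIs. *Nav2* was seen in 4.25% of them (exact 95% binomial interval 1.96 to 7.91), *St8sia6* and *Csmd3* in 1.89% each (0.516 to 4.76) and *Tafa1* and *Nbea* in 1.42% each (0.293 to 4.08). *Ctnna3*, *Grik2*, *Esrrg*, *Khdrbs3* and *Rgs7bp* were in 0 of 212, with an upper end of the interval at 1.73%. The intervals count cells pooled over mice and cover counting error only, and the cells were picked by a limit set after seeing the data. Mean shares of the 5 knockout-led genes in control microglia-like cells ran from 0.238% for *Grik2* to 3.08% for *St8sia6*. In knockout cells *Khdrbs3* was in 0.469%, *Rgs7bp* in 0.511%, *Csmd3* in 8.445%, *Nav2* in 33.2% and *Nbea* in 8.06%. Whether these shares differ from the background was not tested. Over all 352 lymphocyte-like cells *Csmd3* was in 16.2%, above its share in knockout microglia-like cells. *Nav2* was in 20.7% and *Nbea* in 4.83% of them, both below theirs. The shares in lymphocyte-like cells differed with the genotype of the cell, for *Csmd3* 33.3% of control and 3.02% of knockout cells, for *Nav2* 33.99 and 10.6% and for *Nbea* 7.19 and 3.02%. The empty droplets of the pool, which all mice share, held 569 CPM of *Csmd3*, 375 of *Nav2*, 101 of *Tafa1*, 65.9 of *St8sia6* and 16.6 to 53.0 of the other 6 genes.

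Cell by cell, 54.2% ± 12.6 of the knockout cells held a UMI of at least 1 knockout-led gene, against 5.87% ± 0.538 of the control cells. A UMI of at least 1 control-led gene was in 96.4% ± 1.00 of control and 41.8% ± 9.06 of knockout cells. By UMIs seen, 30.6% of knockout cells had knockout-led genes alone, 23.6% genes of both sets, 18.3% control-led genes alone and 27.5% none of the 10. Of 352 lymphocyte-like cells thinned in the same way, 10.8% had a UMI of a knockout-led gene, 26.7% of a control-led gene and 3.13% of both, with cells of both genotypes pooled although their shares differ. None of the 10 was found in 41.8% of the cells of knockout mouse 1, and in 25.4, 19.6 and 23.4% of those of mice 2 to 4. Control-led genes alone were most frequent in mouse 2, at 30.1%. In control mice 90.8% of the cells held control-led genes alone and 0.269% knockout-led genes alone. At least 2 control-led genes were in 82.8% of control and 7.87% of knockout cells, and at least 2 knockout-led genes in 21.2% of knockout and 0.494% of control cells.

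**Figure D2:**
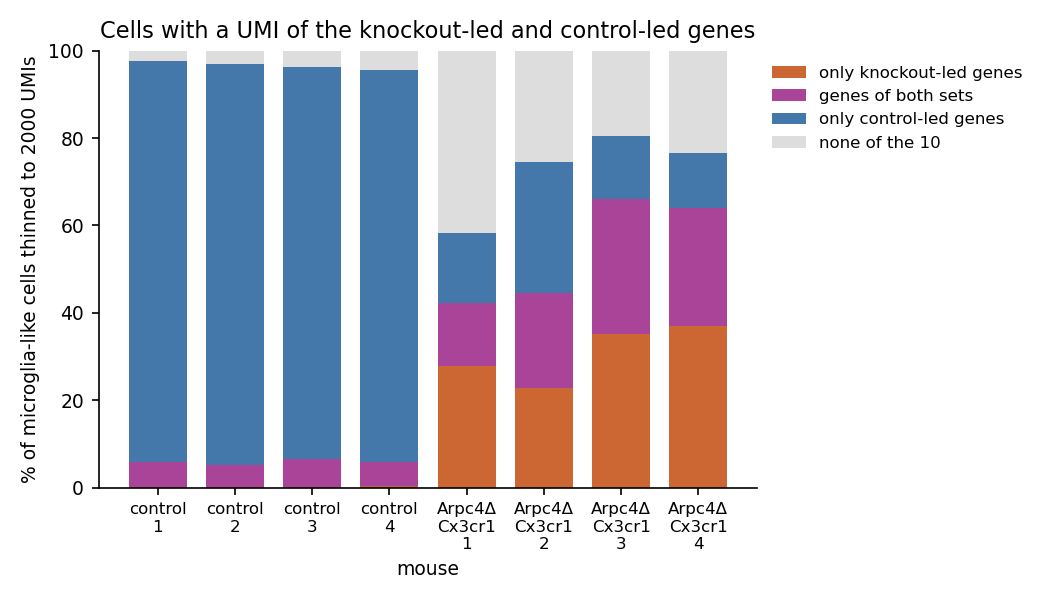
Share of microglia-like cells, thinned to 2000 UMIs, with a UMI of the knockout-led genes alone, of both sets, of the control-led genes alone or of none of the 10, 1 bar per mouse. In control mice 89.7 to 91.9% of the cells held control-led genes alone, and in Arpc4ΔCx3cr1 mice 12.5 to 30.1%.

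Whether genes of a set were found in the same cells was described within each mouse by the Mantel-Haenszel odds ratio over 10 strata of cells of like depth, where 1 means no association. The cells of a mouse share its library and its depth, and no p is given. Knockout-led genes were found together in knockout cells more often than their frequencies alone would give, with medians over their 10 pairs of 1.52, 2.51, 1.45 and 1.53 in mice 1 to 4. Knockout mouse 2 had the strongest association. *Ctnna3* with *Grik2* was the strongest pair, at a mean over the mice of 3.04 (2.41 to 4.16) and 474 cells with both, followed by *Grik2* with *St8sia6* at 2.08. Control-led genes were found together in control cells, with medians over their pairs of 1.69, 1.75, 1.47 and 1.43. In control cells *Csmd3* with *Nav2* was the strongest pair, at 3.22 (2.77 to 3.53) and 6408 cells with both, whereas *Khdrbs3* with *Nbea* and *Nbea* with *Rgs7bp* were near 1 at 1.07 each. In knockout cells the medians of the mice had a mean of 2.09 ± 0.105, and the pairs were spread more widely, from 1.18 for *Nav2* with *Nbea* to 14.4 for *Khdrbs3* with *Rgs7bp*, the latter on 8 cells with both.

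Between the sets the median over the pairs, averaged over the mice, was 0.782 ± 0.164 in control and 1.04 ± 0.206 in knockout mice (SD, n = 4 each). The knockout value hides a difference between mice, with 0.737 in mouse 2 and 1.15, 1.19 and 1.09 in mice 1, 3 and 4. For the knockout-led genes the same measure was 4.88 in control cells, which rests on few cells: it was 1.78 when cells were thinned and 1.61 without the 5% of cells with most UMIs.

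Clusters of the microglia-like cells, made without the 10 genes, divided almost by genotype. In clusters 1, 2 and 3 between 96.2 and 97.1% of the cells were control cells, each mouse weighted equally, and in the other 8 clusters between 0.235 and 30.3%. The levels by cluster that follow are CPM of total UMIs and a description only. *Csmd3* lay at 3864, 1378 and 2690 CPM in the control cells of clusters 1, 2 and 3, and *Nav2* at 2311, 808 and 1573. *Nbea*, at 263, 89.9 and 177 CPM, and *Rgs7bp*, at 75.3, 35.9 and 52.2, kept the same order. *Khdrbs3* varied less, at 112, 87.8 and 92.7 CPM. Cluster 2, the lowest in all 5 genes, also had the lowest median of UMIs per cell, 2749 against 5003 in cluster 1.

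The knockout-led genes were spread less evenly over the clusters of knockout cells. *Tafa1* lay at 585 CPM in cluster 0, the largest with 3109 knockout cells, at 365 to 425 CPM in clusters 4, 5, 9 and 12, at 100 in cluster 6, 37.5 in cluster 10 and 8.81 in cluster 15. *Ctnna3* had another pattern: 386 CPM in cluster 12, which is led by the chemokine genes *Ccl4* and *Ccl3*, 225 in cluster 0 and 6.86 in cluster 5, which is led by *Xist* and *Fn1*. That last mean weighs 3 mice equally, and the 1590 cells of knockout mouse 1 that make up nearly all of cluster 5 had 20.6 CPM of *Ctnna3*. *Grik2* was at 95.3 CPM in cluster 0 and at 72.0 in cluster 12, and *Esrrg* at 103 and 41.9. *St8sia6* was found in each, from 64.8 CPM in cluster 15 to 291 in cluster 0. Cluster 6, led by hemoglobin genes and *Ms4a7*, and cluster 10, with *Malat1* at 3186 CPM where the other microglia-like clusters of knockout cells had 18218 to 32903, were lower than cluster 0 in genes of both sets.

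Of the control-led genes *Csmd3* had a mean of 265 CPM in the knockout cells of cluster 0, from 607 CPM in only 42 cells of mouse 1 and 215, 132 and 106 in mice 2 to 4, and 21.8 to 156 in the other 7 clusters. Without mouse 1, cluster 0 thus did not stand above cluster 15, at 156 CPM. *Nav2* was at 746 CPM in the knockout cells of cluster 15, 488 in cluster 0 and 34.2 to 222 elsewhere. Cluster 15 held 180 knockout cells with at least 10 cells in 2 mice only, and it combined the highest *Nav2* level with *Ctnna3*, *Grik2* and *Esrrg* at 0.

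**Figure D3:**
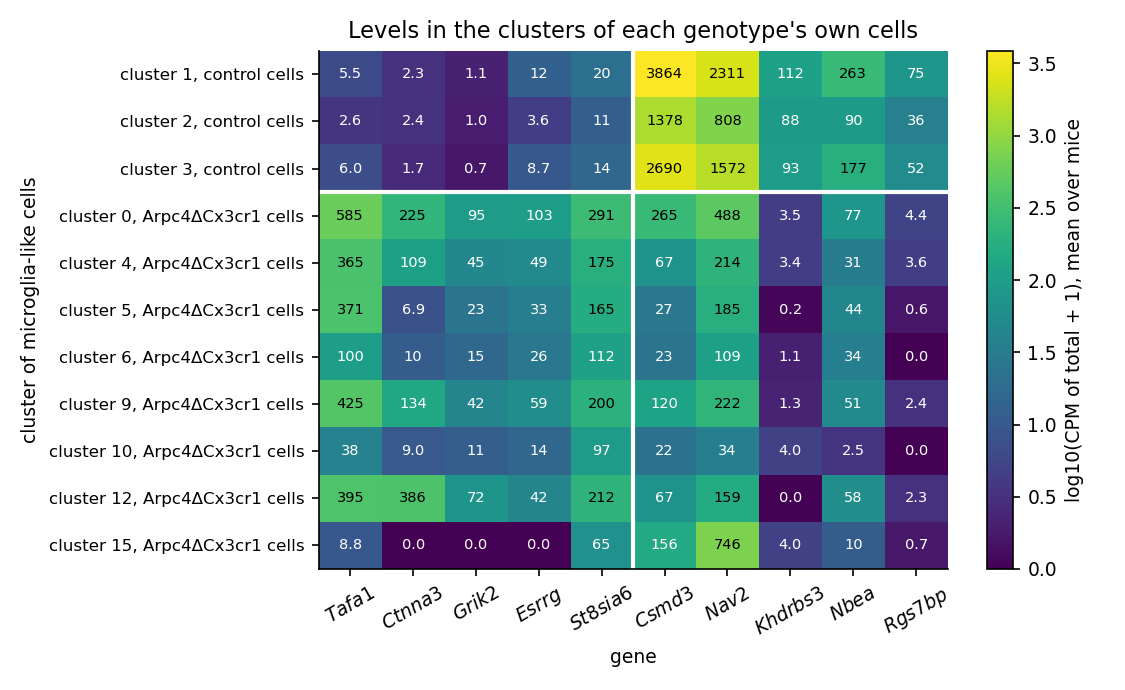
Mean level over mice of each of the 10 genes, in CPM of total UMIs, in the control cells of the 3 clusters made up mostly of control cells and in the Arpc4ΔCx3cr1 cells of the other 8 clusters, with color on a scale of log10(CPM + 1). The largest values are *Csmd3* at 3864 CPM in cluster 1 and, among knockout-led genes, *Tafa1* at 585 CPM in cluster 0.

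The control UMIs of the knockout-led genes came largely from few cells. The 368 control microglia-like cells (4.72%) that fell in clusters of mostly knockout cells held 76.2% of the *Tafa1* UMIs of all control microglia-like cells, 65.3% of those of *Ctnna3* and 63.6% of those of *Grik2*, with 7.16% of all UMIs. For *Esrrg* and *St8sia6* the shares were 22.8 and 30.4%. These cells numbered 51, 97, 94 and 126 in control mice 1 to 4, had a median of 5068 UMIs against 3799 in the other control cells and carried both sets, with *Tafa1* at 213, *Csmd3* at 1131 and *Nav2* at 940 CPM. By their tags they did not stand out, with a median of 84.6% of the tag UMIs on the tag of their own mouse against 82.0% in the other control cells. In cluster 0 alone 86 control cells, with a median of 9961 UMIs, had *Tafa1* at 392 and *Csmd3* at 1532 CPM. In the other clusters of mostly knockout cells *Tafa1* was far lower, with means of 13.3 to 69.8 CPM over mice with at least 10 control cells there. The 98 control cells of cluster 12 had *Tafa1* at 23.6 CPM and *Ctnna3* at 0. Whether droplets with more than 1 cell took part in these values was not tested.

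In the other direction 286 knockout cells (3.10%) fell in clusters of mostly control cells, 224 of them from knockout mouse 2 and 2, 44 and 16 from mice 1, 3 and 4. They held 2.53% of all knockout UMIs but 30.4% of the *Csmd3*, 21.3% of the *Khdrbs3*, 9.93% of the *Nav2* and 9.02% of the *Rgs7bp* UMIs. Most of this came from mouse 2: without it the shares were 0.718% of all UMIs, 21.1% for *Csmd3*, 3.704% for *Khdrbs3* (2 of 54 UMIs), 2.71% for *Nav2* and 3.06% for *Rgs7bp*. Unlike the control cells above they had little *Tafa1*, 8.98 CPM, beside 1630 CPM of *Csmd3* and 1258 of *Nav2*. Pooled over mice, they also differed from the control cells of the same clusters, which had 2924 CPM of *Csmd3* and 1745 of *Nav2*. For *Csmd3* the knockout mice disagreed. It was at 1238 CPM in the cells of mouse 2 and 724 in those of mouse 4. The 44 cells of mouse 3 had 3891 CPM, above the control cells, and the 2 cells of mouse 1 had 2655. These knockout cells had more *St8sia6*, 53.0 against 16.4 CPM. They had less *Khdrbs3* (18.0 against 101.2 CPM), *Nbea* (59.3 against 197.5) and *Rgs7bp* (10.8 against 59.8). Their *Arpc4* level, 200 CPM, was above the 138 CPM of the other knockout cells. The own tag of those of mouse 2 took 66.1% of the tag UMIs against 75.1% in the other cells of that mouse. The next most abundant tag was that of a control mouse in 5.80% of the former and 2.80% of the latter. Whether droplets with more than 1 cell took part here was not tested. With each genotype read in its own clusters only, a choice made after seeing the data, *Tafa1* was at 4.92 and 423 CPM in control and knockout cells, *Ctnna3* at 2.15 and 157, *Grik2* at 0.974 and 65.9, *Csmd3* at 2956 and 99.1, *Nav2* at 1753 and 301 and *Khdrbs3* at 101 and 1.75.

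Within a genotype the shares of the 10 genes were also read in cells with and without a UMI of *Arpc4* itself. *Arpc4* was in 37.7% of the thinned control and 24.1% of the thinned knockout cells. *St8sia6* was in 30.9% of the knockout cells without an *Arpc4* UMI and in 27.3% of those with one, and *Grik2* in 8.21 and 7.57%, both higher without it in 4 of 4 mice. Among control cells *Grik2* was in only 3, 4, 5 and 5 of the thinned cells of mice 1 to 4, too few to be divided. *Esrrg* was in 1.24% of the control cells without and 2.14% of those with it, higher without in 1 of 4. *Csmd3* was in 85.8% of the control cells without and 85.2% of those with an *Arpc4* UMI. *Khdrbs3* was lower without it in 4 of 4 control mice, at 15.2 and 16.5%, and *Nav2* and *Nbea* higher, at 86.5 and 83.3% and at 26.5 and 24.1%. No test was made of these shares. With 10 genes in each genotype, some in which all 4 mice go 1 way are expected by chance, 1 in 8 on average, and here it was 4 in control cells, *Grik2* among them, and 2 in knockout cells. The same measure was not taken for other genes.

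Levels across cells were also compared with all genes tested, by Pearson's r of log-normalized counts across the microglia-like cells of each mouse, averaged over the 4 mice of the genotype in which the gene leads. Cells of a mouse share its library, and depth alone can raise r between abundant genes. *Ctnna3* was most like *Lrrtm3* (r = 0.483, 0.385 to 0.538 over the mice), a synaptic adhesion gene that lies within *Ctnna3* on the opposite strand, then *Ank* (0.221) and *Grik2* (0.220). *Csmd3* was most like *Plxdc2* (0.453), *Nav3* (0.437) and *Elmo1* (0.422), and *Nav2* most like *Plxdc2* (0.489), *Tanc2* (0.487) and *Elmo1* (0.486). *Nbea* had the same 3 neighbours as *Nav2*, at 0.225 to 0.233. For *Khdrbs3* they were the microglia genes *Fcrls* (0.1501) and *P2ry12* (0.118), with *Csmd3* (0.149) between them.

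Of the remaining genes *Tafa1* went with *Nav3* (0.225), *Plxdc2* (0.219) and *Mir99ahg* (0.196), and *St8sia6* with *Plxdc2* (0.262), *Plcl1* (0.245) and *Lrmda* (0.231). *Esrrg* went with *Lrmda* (0.174), *Plcl1* (0.172) and *Mir99ahg* (0.165), *Grik2* with *Ctnna3*, *St8sia6* and *Plxdc2* (0.141 each for the last 2), and *Rgs7bp* with *Nav3* (0.120), *Nav2* (0.111) and *Elmo1* (0.108). Values of this size in sparse counts are weak, and *Plxdc2*, an abundant gene, stands among the neighbours of both sets.

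Cells named other than microglia took no part in the choice of the 10 genes, and of these the CAM-like cells, the macrophages of the borders of the brain, also express *Cx3cr1*. They numbered 47, 63, 110 and 63 in control and 45, 22, 31 and 27 in knockout mice, and their *Arpc4* level was 193 ± 24.1 and 226 ± 17.8 CPM of total UMIs, not lower in the knockout mice. Of 3397 genes tested in these cells 1.00% (34 genes) passed, and of the 10 genes only *Csmd3* and *Nav2* had enough counts to be tested. Both reached the filter through the control group, where they are high (34 to 130 and 45 to 69 UMIs per control mouse, 0 to 4 and 3 to 16 per knockout mouse), so that their number is no support. *Csmd3* had 171, 591, 321 and 378 CPM (total times TMM factor) in control and 33.8, 47.8, 27.4 and 0 CPM in knockout mice, so that the groups were apart. The fitted log2 fold change of *Csmd3* was −3.72, SE 0.48, with an adjusted p of 0.000341 (edgeR quasi-likelihood test, Benjamini-Hochberg adjustment), and it passed in 12 of 12 other settings, that with no filter among them, with adjusted p of 1.07e-22 to 0.00188. *Nav2* had 226, 268, 189 and 263 CPM in control and 50.7, 191, 82.3 and 31.2 CPM in knockout mice, where mouse 2 reached into the control range. For *Nav2* the fit gave −1.47, SE 0.33, and an adjusted p of 0.0319 (edgeR quasi-likelihood test, Benjamini-Hochberg adjustment), and the call was fragile. Microglia transcripts were present in these cells, as given below, so neither p can be taken as independent of the choice of the genes.

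In CAM-like cells *Nav2* passed in 5 of 12 other settings. In edgeR's quasi-likelihood test (Benjamini-Hochberg adjustment) the adjusted p of *Nav2* was 0.0887, 0.12, 0.0793 and 0.0920 without control mice 1 to 4 in turn and 0.0834, 0.0624 and 0.0548 without knockout mice 1, 3 and 4, and 0.00258 without knockout mouse 2. The count of 34 genes also moved with single mice, to 13, 21, 9 and 13 without control mice 1 to 4 and to 61 and 52 without knockout mice 2 and 4. It was 119 with no filter, and 847 at a clustering resolution of 0.4, where the class took in 1634 cells in place of 408. *Csmd3* in CAM-like cells was at 11.1% of its level in control microglia-like cells and *Nav2* at 12.03%, in CPM of total UMIs. Microglia markers were present there too, *P2ry12* at 22.8%, *Tmem119* at 19.1% and *Sall1* at 11.7% of the microglia-like level. In knockout mice these shares were 16.6% for *Csmd3*, 23.6% for *Nav2*, 43.9% for *P2ry12*, 29.5% for *Tmem119* and 17.9% for *Sall1*, and *P2ry12* also differed between the genotypes in CAM-like cells, 620 ± 45.8 against 310 ± 99.0 CPM. The part of microglia transcripts in the *Csmd3* and *Nav2* levels of CAM-like cells was not tested.

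For all 10 genes, most of which were below the edgeR filter, the levels in CAM-like, lymphocyte-like and monocyte- or granulocyte-like cells were compared by exact permutation tests over the mice, two-sided, 30 in all for 10 genes and 3 classes. With 4 mice against 4 the smallest p of the exact permutation test is 0.0286, which 10 of the 30 reached. After Benjamini-Hochberg adjustment none passed, the lowest adjusted value being 0.0857. For a comparison at the smallest p the adjusted value is set by how many reach it, not by the size of the difference. That none passed is therefore no evidence that the levels were alike. In CAM-like cells *Nbea* was among the 10, with 47.1, 51.4, 25.4 and 40.6 CPM of total UMIs in control and 6.64, 0, 7.48 and 9.25 in knockout mice, lower in 4 of 4. *Csmd3* was the other one in these cells, and *Tafa1* was at 10.9 ± 14.2 and 97.2 ± 95.1 CPM there (exact permutation test, p = 0.143). *Rgs7bp* stood out by its level: 31.1 ± 11.4 CPM in control and 30.9 ± 26.6 in knockout CAM-like cells, on 36 and 14 UMIs (p = 1, exact permutation). In knockout mice that is above its level in microglia-like cells, 3.01 ± 0.771 CPM, in 3 of 4 mice, whereas in control mice CAM-like cells lay below microglia-like cells, at 57.3 ± 5.24, in 4 of 4.

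Lymphocyte-like cells, which are T and B cells, had differences of this kind that did not pass after adjustment, under the same limit. *Csmd3* had 745, 1288, 665 and 1232 CPM of total UMIs in control and 9.84, 43.4, 52.6 and 13.2 in knockout lymphocyte-like cells, so that the groups did not overlap. Means for *Nav2* were 590 ± 138 and 111 ± 88.0 CPM, for *Tafa1* 3.44 ± 3.99 and 93.6 ± 48.2, for *Ctnna3* 0.912 ± 1.82 and 42.9 ± 28.1 and for *St8sia6* 26.8 ± 17.9 and 75.3 ± 13.4. *Esrrg* was at 0 and 17.3 ± 8.02 CPM, *Khdrbs3* at 30.6 ± 21.7 and 0, and *Nbea* at 73.0 ± 28.7 and 21.02 ± 15.9. These 8 genes each had the smallest possible p of 0.0286 in the exact permutation test, two-sided, and an adjusted value of 0.0857. Each differed in the same direction as in microglia-like cells.

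The lymphocyte-like cells were of 2 kinds by their microglia transcripts. A limit of 0.5% of UMIs on 14 microglia markers, set after seeing the data, put 68 of 176 control and 72 of 211 knockout cells above it, and 4 and 3 cells lay between 0.4 and 0.6%. The cells above it had medians of 7690 and 8082 UMIs, those at or below it 3121 and 3134. The limit is not alike for both genotypes, since the markers took a median of 3.35% of UMIs in control and 2.17% in knockout microglia-like cells. Above the limit *Csmd3* was at 1702 ± 514 CPM in control and 46.5 ± 41.3 in knockout cells, *Nav2* at 1015 ± 286 and 180 ± 131, *Tafa1* at 2.60 ± 5.19 and 164 ± 79.5 and *St8sia6* at 39.6 and 125 ± 14.1, values given without a test. Over single cells above the limit the median *Csmd3* level was 942 CPM in control and 0 in knockout cells, and that of *Nav2* 776 and 76.4 CPM.

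At or below the limit the same genes were low in both genotypes, with *Csmd3* at 10.8 ± 9.10 and 9.21 ± 7.17 CPM and *Tafa1* at 3.17 ± 6.33 and 4.63 ± 6.17. *St8sia6* was at 10.97 ± 21.9 and 15.9 ± 14.8 CPM there, and *Nav2* at 37.1 ± 15.6 and 13.3 ± 14.03. *Nbea* went against its direction in microglia-like cells, at 0 in control and 12.6 ± 11.2 CPM in knockout cells, on 8 UMIs. *Ctnna3* had no UMI in either genotype, *Esrrg* 1 in knockout cells and *Khdrbs3* 1 in control cells. The part of microglia transcripts, or of droplets with more than 1 cell, in the values of lymphocyte-like cells was not tested. In monocyte- or granulocyte-like cells none of the 10 genes had an unadjusted p under 0.05 in the exact permutation test, and the lowest, 0.0857 (adjusted p = 0.198 by Benjamini-Hochberg), was shared by *Csmd3*, with 252 ± 320 CPM in control and 40.0 ± 29.3 in knockout mice, and *Nbea*, with 8.58 ± 2.06 and 3.19 ± 4.13.

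**Figure D4:**
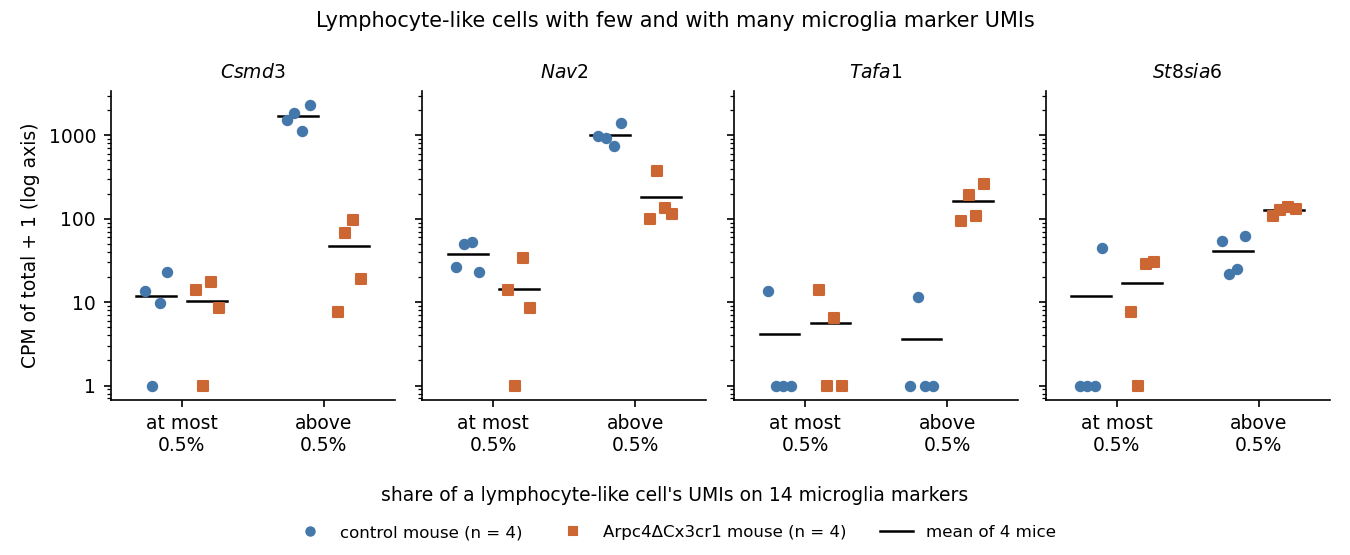
Levels of *Csmd3*, *Nav2*, *Tafa1* and *St8sia6* in lymphocyte-like cells, in CPM of total UMIs plus 1 on a log axis, for cells with at most 0.5% and above 0.5% of their UMIs on 14 microglia markers, with 1 point per mouse and a line at the mean. Above the limit the groups are apart (*Csmd3* 1702 against 46.5 CPM) and at or below it they overlap (10.8 against 9.21 CPM).

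Families of the 10 genes were read from the test in microglia-like cells. Of 42 family members, the 10 genes themselves not counted, 19 had enough counts and 13 passed (5 higher, 8 lower), or 68.4% against 46.0% of all genes tested, with a median log2 fold change of −0.16 against −0.01. Named after their values were seen, the relatives that passed with the largest difference moved the same way as *Tafa1*, *St8sia6*, *Nbea*, *Nav2* and *Khdrbs3*, and the other way from *Ctnna3* and *Esrrg*. *Tafa2*, the only relative of *Tafa1* with enough counts, rose from 2.15 ± 0.469 to 51.9 ± 18.4 CPM (log2 fold change 4.54, adjusted p = 9.63e-07 by edgeR quasi-likelihood, Benjamini-Hochberg). *St8sia1*, which makes disialylated gangliosides, rose from 10.4 ± 0.512 to 60.5 ± 14.8 CPM (2.54, adjusted p = 1.22e-06 by edgeR quasi-likelihood, Benjamini-Hochberg). *Lrba*, a BEACH protein gene like *Nbea*, fell from 271 ± 7.23 to 91.0 ± 15.2 CPM (−1.57, adjusted p = 7.90e-07 by edgeR quasi-likelihood, Benjamini-Hochberg). All 4 knockout mice lay on 1 side of all 4 control mice for *Tafa2*, *St8sia1* and *Lrba*.

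Other relatives moved less or the other way. *St8sia4* rose from 41.7 to 56.5 CPM and *Ctnna1*, the widespread relative of *Ctnna3*, from 55.7 to 66.7, whereas *Ctnnal1* fell from 27.2 to 18.2 and *Esrra*, a relative of *Esrrg*, from 28.6 to 22.1. The STAR proteins *Qk*, *Sf1* and *Khdrbs1* fell with *Khdrbs3*, by far less, *Qk* from 1879 to 1195 CPM and *Khdrbs1* from 184 to 164. Among the BEACH genes *Lyst*, which shapes lysosomes, rose from 105 to 193 CPM and *Nbeal2* fell from 9.59 to 4.92, and *Nbeal1*, *Wdfy3*, *Wdfy4* and *Nsmaf* did not pass. *Nav1* passed with a fall from 53.1 to 37.8 CPM although its groups overlapped, and *Nav3*, the navigator nearest to *Nav2* in level, had 1793 ± 144 and 1354 ± 357 CPM (adjusted p = 0.0512 by edgeR quasi-likelihood, Benjamini-Hochberg). *Gnb5*, a partner of the proteins that *Rgs7bp* anchors, did not pass. The calls of *Khdrbs1* and *Sf1* ended in most other settings, that of *St8sia4* when cells were not named and that of *Nav1* without control mouse 2 or 4. *Nav3* was called with the DESeq2 test, with no filter, with the mouse number as a block and without knockout mouse 1.

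For *Grik2* and *Csmd3* no relative had enough counts. None of the 6 other genes of kainate receptor and auxiliary subunits was tested, *Grik1* having the most UMIs with 72 over all microglia-like cells, and neither was *Csmd1* or *Csmd2*. With no filter *Grik4*, on 32 UMIs, was also called between the genotypes.

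A list of 103 other genes of neurons, nearly all long among those tested (*Nlgn2*, at 14.7 kb, is not), most with roles in adhesion, synapses or axon guidance and a few that bind RNA or regulate genes, such as *Rbfox1*, *Rbfox3*, *Celf2* and *Auts2*, gives the setting for the sets. Of these 21 had enough counts and 10 passed (4 higher, 6 lower), or 47.6% against 46.0% of all genes, with a median log2 fold change of −0.15. The list as a whole thus passed at the rate of all genes. *Lrrtm3* rose from 0.264 ± 0.406 to 13.5 ± 9.72 CPM, a log2 fold change of 5.45 (adjusted p = 0.000991 by edgeR quasi-likelihood, Benjamini-Hochberg), and it lies within *Ctnna3*. *Dpp6*, a partner of potassium channels, rose from 1.58 to 18.2 CPM, *Cadm1*, an adhesion molecule of synapses, from 280 to 519 and *Lrp1b* from 1.25 to 1.90. *Sema6d*, a ligand of plexins, fell from 9.86 to 1.09 CPM, *Ptprm*, an adhesion phosphatase, from 296 to 115, *Plxna4* from 286 to 165, *Ptprd* from 2.10 to 0.816, *Rbfox1* from 72.0 to 47.1 and *Rbfox3* from 1.47 to 0.213. Except *Cadm1*, *Ptprm*, *Plxna4* and *Rbfox1* these genes had few CPM, like *Grik2* in control mice. The call of *Lrp1b* ended in nearly every other setting and that of *Rbfox3* also at resolution 0.4 and when cells were not named, and with a subtraction of the empty-droplet profile those of *Lrrtm3*, *Ptprd* and *Rbfox3* ended too, which left 6.

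Markers of other cells and of RNA quality were summed in the same microglia-like cells, in CPM of total UMIs. The 8 neuron markers summed to 2.86, 1.75, 1.55 and 3.28 CPM in control and 0.653, 0.599, 1.63 and 1.54 CPM in knockout mice, far below each of the sums of the 10 genes. *Rbfox3* held 44.4% of these UMIs, *Gad1* had none and 1 of the 8 was tested. The 13 mitochondrial genes moved with the genotype, with 5434, 5415, 5960 and 5925 CPM in control and 11985, 10750, 12288 and 12795 CPM in knockout mice, *mt-Co3* the most abundant and 13 of 13 higher. *Malat1*, an RNA of the nucleus, was at 25464 ± 524 and 23535 ± 955 CPM (p = 0.0571 in the two-sided exact permutation test). The part of the mitochondrial difference in the levels of the 10 genes was not tested.

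The astrocyte markers summed to 232, 206, 232 and 254 CPM in control and 150, 164, 173 and 154 in knockout mice, *Slc1a3* being 97.5% of them. *Aldoc* and *Gfap*, with few UMIs, went against this sum and were higher in knockout mice (log2 fold changes 3.18 and 3.88). The oligodendrocyte markers were alike in their sum only, with means of 63.6 ± 2.32 and 63.9 ± 2.70 CPM, since *Mbp*, the most abundant, was higher in knockout mice (log2 fold change 0.52) and *Cnp* lower (−0.36). The endothelial markers summed to 27.8 ± 0.290 and 75.2 ± 23.9 CPM, with *Flt1* at 78.3% and *Cldn5* at 0, although *Pecam1* was lower in knockout mice (log2 fold change −2.63), and the precursor markers *Cspg4* and *Pdgfra* to 0.217 ± 0.173 and 7.11 ± 3.20, with *Cspg4* at 99.7%. Except for the oligodendrocyte list these sums were carried mostly by 1 gene each, and their part in the levels of *Tafa1*, *Csmd3* and the other 8 genes was not tested.

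The 10 genes share a long span in the genome, as their choice required. In the GENCODE vM21 annotation of mm10 *Ctnna3* spans 1574 kb (chromosome 10, 63430098 to 65003667, + strand), *Csmd3* 1211 kb (chromosome 15, 47580637 to 48792063, − strand), *Nav2* 701 kb (chromosome 7, 48908716 to 49610090, +) and *Grik2* 694 kb (chromosome 10, 49094833 to 49788766, −). *Esrrg* spans 606 kb (chromosome 1, 187608791 to 188214885, +), *Nbea* 559 kb (chromosome 3, 55625195 to 56183701, −) and *Tafa1* 544 kb (chromosome 6, 96113154 to 96657198, +), which is listed there as *Fam19a1*. *Khdrbs3*, at 173 kb (chromosome 15, 68928420 to 69101211, +), *St8sia6*, at 143 kb (chromosome 2, 13651021 to 13794064, −), and *Rgs7bp*, at 109 kb (chromosome 13, 104945904 to 105054930, −), are the shortest. Length was part of the rule, and it does not separate the sets: the median span was 582 kb, against 22.7 kb for all genes tested. Genes counted on the same strand overlap *Grik2* (*Gm26543* with 8 and *Gm47018* with 3 UMIs), *Nav2* (*Gm2788* with 37 and *Gm32849* with 583) and *Khdrbs3* (*Gm49422* with 13). These UMIs, over all microglia-like cells, are few beside those of the group in which each gene leads. They are less few beside *Grik2* in control mice (11 to 20 UMIs per mouse) and *Khdrbs3* in knockout mice (11 to 40). UMIs of such pairs can be assigned to either gene.

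The calls among all genes are given by span as counts, without a test between the classes. Of 260 genes tested that span over 300 kb, 7 of the 10 genes among them, 62.7% passed in microglia-like cells (98 higher, 65 lower), and of 1280 genes of 100 to 300 kb, such as *Rgs7bp*, 55.8% passed. The shares were 46.3% of 3648 genes of 30 to 100 kb, 41.5% of 4151 of 10 to 30 kb and 46.0% of 3370 under 10 kb. The median size of the log2 fold change was 0.44 in the longest class and 0.23 to 0.32 in the others, well below that of each of the 10 genes. Genes of the longest class were found on both sides, as the 10 genes are.

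**Figure D5:**
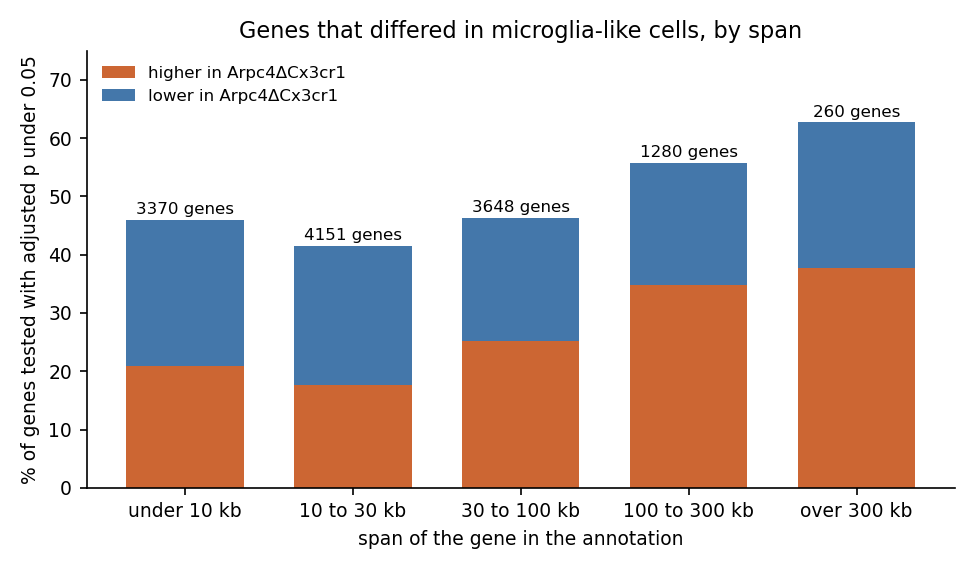
Share of the genes tested in microglia-like cells that passed at 0.05 (edgeR's quasi-likelihood test, Benjamini-Hochberg adjustment), higher or lower in Arpc4ΔCx3cr1 mice, by the span of the gene in kb, with the number of genes above each bar. The share is 62.7% over 300 kb and 41.5 to 55.8% in the shorter classes.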

How the data were processed

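The deposited values were raw UMI counts, which the authors made with Cell Ranger (7.1.0 per the file headers, 6.1.2 in the submitters' notes) on mm10, with each of 19864 cells assigned to 1 of 8 mice by its tag. They were not corrected for free RNA. Tags were left out of all totals. A cell stayed in if it had 200 genes or more and no more than 20% of its UMIs on mitochondrial genes; 1 cell was removed. Seurat 5.3.0 clustered all cells (10000 variable genes less the 10 genes of the report, 20 principal components, 20 neighbours, resolution 0.8), and clusters were named by marker lists. No doublet caller was run. UMIs were summed per mouse and class and tested with edgeR 4.0.16 in R 4.3.3 (filterByExpr, TMM, quasi-likelihood F-test, Benjamini-Hochberg, 0.05), with DESeq2 1.42.0 as an alternative. Shares, odds ratios and exact permutation tests came from scipy 1.17.1, pandas 2.3.3 and numpy 2.4.6 under Python 3.11.15, and figures from matplotlib 3.10.9.

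The 10 genes and all lists were chosen with earlier results of these data known. Named were the 10 genes, *Arpc4*, the relatives that passed the filter, the 5 largest non-overlapping rises and falls of the long neural list, the 3 genes most like each of the 10 and the top gene of each marker list. Other genes, the leading genes of clusters among them, were named after their values were seen. Barcodes with at most 100 UMIs (1769098 with any UMI) gave the profile of empty droplets. Spans came from GENCODE vM21, and 1507 cells in 2 shallow clusters stayed unnamed and were left out.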

Additional observations from a re-analysis of the deposited data

Results flagged for a closer look

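In groups of 4 mice a value far from the other 3 by Dixon's ratio of gap to range was marked, which gave 12 among 156 groups with at least 10 UMIs. Chance alone gives about 1 in 20 groups, so that most of the 12 can be of that kind. For *Rgs7bp* in microglia-like cells knockout mouse 1 had 1.945 CPM (others 3.40 to 3.60). In the same cells and mouse *Xist* had 1444 CPM (others 6.31 to 13.8) and *Cadm1* 340 (others 560 to 601). Knockout mouse 2 stood apart for *Ctnnal1* in microglia-like cells, 19.85 CPM (others 17.5 to 17.8), for *Nav2* in lymphocyte-like cells, 242 CPM (others 55.8 to 78.9), for *Ctnna3* in CAM-like cells, 128 CPM (others 0 to 9.25), and for the co-detection of knockout-led genes, with a median odds ratio of 2.505 (others 1.45 to 1.53). Knockout mouse 3 stood apart in monocyte- or granulocyte-like cells for *Ctnna3*, 28.2 CPM (others 4.89 to 6.96), and *Grik2*, 23.85 CPM (others 0 to 4.08). Knockout mouse 4 had 46.3 CPM of *Grik2* in lymphocyte-like cells (others 0 to 6.56). Control mouse 2 had 727 CPM of *Csmd3* in monocyte- or granulocyte-like cells (others 42.4 to 148), and control mouse 1 had 51.35 CPM of *St8sia6* in CAM-like cells (others 13.9 to 19.8).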

How the results depend on the processing

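The log2 fold changes of the 10 genes kept their direction in every setting, and 149 of 160 stayed within their spread. The 11 others came from a subtraction of the empty-droplet profile (7, *Khdrbs3* the furthest at −12.7) and from clusters of the own genotype (4). Over the planned settings *Tafa1* reached 5.46, *Csmd3* −4.985 and *Rgs7bp* −5.22, and in clusters of the own genotype *Tafa1* was at 6.495. Genes called in microglia-like cells numbered 5137 to 6373 (5853 in the report), relatives 10 to 14 (13) and long neural genes 9 to 12 (10), except 6 with the subtraction, where fewer genes were tested. Genes called in CAM-like cells (34) were 119 with no filter and 847 at resolution 0.4, where the class held other cells as well, and 9 without control mouse 3 to 61 without knockout mouse 2; the cause of the last 2 was not tested. With a replicate block the counts were 5513, 14, 11 and 23, and mice of the same number did not go together (r −0.0734, −0.0152, −0.0431 and −0.0105). In other cells 283 of 300 differences stayed within their spread, and 13 of the 17 others came from leaving out cells rich in microglia markers. Of shares 187 of 220 stayed, and all 33 others came with another depth of thinning. Depth limits *Grik2* in control and *Khdrbs3* and *Rgs7bp* in knockout mice, and 22 to 110 CAM-like cells per mouse limit all tests there.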

Other observations

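The 1507 cells left unnamed for their low depth also held the 10 genes. *Csmd3* was at 4260 ± 478 CPM of total UMIs in control and 305 ± 260 in knockout mice there, *Nav2* at 2312 ± 117 and 414 ± 184, and *Tafa1* at 12.2 ± 3.32 and 456 ± 194. *Malat1* was at 58597 ± 1399 and 58317 ± 6593 CPM in these cells, against 25464 and 23535 in microglia-like cells.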
